A study of Mus musculus with 24 samples.

Results

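The mouse osteocalcin gene cluster comprises *Bglap*, *Bglap2* and *Bglap3*. Its members were taken by gene symbol from the count files of 24 cultures, and 3 of 55335 gene rows matched. The cells were primary osteoblasts (OBs) from parietal bones of pups 4 to 5 days old, kept in osteogenic differentiation medium and collected on day 8, 14 or 21 of culture, counted from seeding. Het mice carried 1 *Col1a2* allele with the G610C substitution of a glycine in type I procollagen, a germline allele kept on the C57BL/6J background, and wild type (WT) mice carried none. Each genotype and day had 4 libraries. Cells were pooled over several pups of a genotype, so wells may share animals, and p-values measure only the spread between these wells. The study's methods describe 2 preparations that differed in plating density and oxygen. The labels do not say which replicate came from which.

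Osteocalcin is a small protein that mature OBs secrete into bone matrix, and it is the classical marker of late OB differentiation. A vitamin K dependent carboxylase converts some of its glutamate residues to Gla residues, which bind calcium and the mineral hydroxyapatite. Mice carry the gene as a tandem cluster, in which *Bglap* and *Bglap2* are the bone copies and *Bglap3* is known for transcription outside bone.

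The 3 genes lay within 15849 bases on the minus strand of chromosome 3 in the GENCODE vM21 annotation of GRCm38, the assembly that mm10 names. *Bglap* spanned chr3:88383501-88384464, *Bglap2* chr3:88377736-88378699 and *Bglap3* chr3:88368616-88372743. The main coding transcript of each had 4 exons and a coding sequence of 288 bases. The pseudogenes *Gm21956* and *Gm6821* lay between the copies, and no annotated gene overlapped a member on either strand. The coding sequences are shown because every value below depends on telling these copies apart. Capitals mark bases that differ between *Bglap* and *Bglap2* in the first 2 lines, and bases of *Bglap3* that differ from *Bglap* in the third.
Bglap: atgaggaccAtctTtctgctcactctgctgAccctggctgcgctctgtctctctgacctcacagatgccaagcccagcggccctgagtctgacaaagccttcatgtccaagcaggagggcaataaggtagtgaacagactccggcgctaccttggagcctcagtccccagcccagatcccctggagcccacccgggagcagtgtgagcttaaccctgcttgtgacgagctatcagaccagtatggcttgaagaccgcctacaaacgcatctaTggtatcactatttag
Bglap2: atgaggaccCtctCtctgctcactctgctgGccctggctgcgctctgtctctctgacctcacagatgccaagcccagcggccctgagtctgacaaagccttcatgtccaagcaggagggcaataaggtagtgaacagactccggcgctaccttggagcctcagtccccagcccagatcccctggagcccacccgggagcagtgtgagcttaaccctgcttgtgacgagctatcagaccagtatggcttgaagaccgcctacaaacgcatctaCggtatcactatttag
Bglap3: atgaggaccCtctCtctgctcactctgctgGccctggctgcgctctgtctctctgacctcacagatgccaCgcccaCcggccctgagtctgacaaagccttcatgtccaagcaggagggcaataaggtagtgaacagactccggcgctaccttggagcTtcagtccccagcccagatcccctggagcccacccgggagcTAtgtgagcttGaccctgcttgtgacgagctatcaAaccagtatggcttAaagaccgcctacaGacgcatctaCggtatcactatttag

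*Bglap* and *Bglap2* differed at 4 of the 288 coding bases (98.61% identity) and shared an identical run of 241 bases. *Bglap3* differed from *Bglap* at 13 bases (95.49% identity) and from *Bglap2* at 9 (96.88%). Of all 50-base windows of the main transcripts, 25.3% of 391 in *Bglap*, 11.85% of 422 in *Bglap2* and 76.05% of 668 in *Bglap3* matched no transcript of another gene. At 100 bases these shares were 43.7%, 43.01% and 96.8%. Every shared window was shared within the cluster. How reads that fitted several copies were counted is not given in the sources used here, so counts of single copies are uncertain, and the sum of the 3 copies is given beside them.

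Promoter entries of RefSeq on GRCm38.p6 matched 2 of the 3 members. They are shown for the copy with the most reads in WT at day 21, *Bglap*, and the copy with the fewest, *Bglap3*. The first line holds the 250 bases before the *Bglap* start (chr3:88384467-88384716, minus strand), and the second those before the *Bglap3* start nearest to its coding exons (chr3:88369832-88370081, minus strand). Capitals mark matches to ACCACA (the core that RUNX factors recognize), TTACATC (the OSE1 core) or the letters TATAAA, as in TATA-box promoters.
Bglap promoter: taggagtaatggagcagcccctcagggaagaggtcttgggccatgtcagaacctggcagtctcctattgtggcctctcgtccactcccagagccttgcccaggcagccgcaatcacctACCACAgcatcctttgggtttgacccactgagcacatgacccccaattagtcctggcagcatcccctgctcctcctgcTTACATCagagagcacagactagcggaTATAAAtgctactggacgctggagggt
Bglap3 promoter: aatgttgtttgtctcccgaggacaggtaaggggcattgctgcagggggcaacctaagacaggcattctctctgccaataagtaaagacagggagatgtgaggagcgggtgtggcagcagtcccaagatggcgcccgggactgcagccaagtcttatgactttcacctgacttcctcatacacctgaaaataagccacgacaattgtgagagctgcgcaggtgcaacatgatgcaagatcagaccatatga

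Both strands of the 300-base windows were searched, each reaching 50 bases past the start. The *Bglap* window held ACCACA 132 bases, CCAAT 90 bases, TTACATC 54 bases and TATAAA 27 bases before the start, all on the gene's strand, but not the extended RUNX motif AACCACA, which holds the core within it. In none of the 3 *Bglap3* windows were the RUNX core, the extended RUNX motif, the OSE1 core or the letters TATAAA found, whereas CCAAT was found in each. Other forms of the TATA box were not searched. A *Bglap3* window not shown here (upstream bases chr3:88372742-88372991) holds the letters TATATAA shortly before its start. Of all 32851 windows, 16.8% held the RUNX core, 5.27% the extended RUNX motif, 2.44% the OSE1 core, 13.6% the letters TATAAA and 37.4% CCAAT. A match is a string of letters and was not tested as a binding site.

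Total counts were 17140202 to 59734231 per library (median 48340136), and the 6 replicate 1 libraries were the shallowest (at most 25825762). Transcript level is given as the relative quantity (RQ) used by the study, a gene's count over the geometric mean of 4 housekeeping genes (*Sdha*, *Mrfap1*, *Actb* and *Actg1*) of the same library. This mean was 428 to 629 CPM. *Col1a1*, the gene of the main OB matrix protein, had a mean RQ of 36.2 ± 13.5 (SD, n = 4) in WT at day 8 and 138 ± 38.9 at day 14. The G610C change itself cannot be read from gene counts, and *Col1a2* RQ was 135 ± 23.4 in WT and 103 ± 19.7 in Het over days 14 and 21 (SD, n = 8). No pair of replicates held identical counts.

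Osteocalcin transcripts rose between days 8 and 14 in both genotypes, the mean summed RQ of the 3 copies 101-fold in WT and 86.2-fold in Het. The Het value rested on single libraries: it was 43.3-fold without Het day 14 replicate 2 and 138-fold without Het day 8 replicate 1, and with replicates 2 to 4 alone it was 168-fold in Het and 122-fold in WT. In WT, *Bglap* had 28, 74, 59 and 90 counts at day 8, 1427, 12243, 15754 and 11283 at day 14, and 8411, 27177, 16920 and 20924 at day 21 (replicates 1 to 4). Its RQ was 0.00265 ± 0.000338, 0.409 ± 0.204 and 0.906 ± 0.142 on these days (SD, n = 4). Days 8 and 14 did not overlap, and replicate 1 was far below the other WT libraries at day 14. In Het, *Bglap* had 51, 12, 20 and 47 counts at day 8, 555, 5696, 2464 and 2081 at day 14, and 3887, 5086, 7062 and 4994 at day 21. Its RQ was 0.00157 ± 0.00145, 0.168 ± 0.172 and 0.262 ± 0.0926. Replicate 2 was the high Het library at day 14, and replicate 1 the high Het library at day 8.

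The log2 fold change from day 8 to day 14 was 7.26 ± 0.69 (SE) for *Bglap* in WT and 6.93 ± 0.70 in Het (adjusted p = 7.71e-08 and 1.44e-07, edgeR quasi-likelihood test). Of 20434 genes tested, 3 rose more than *Bglap* in each genotype. For *Bglap2* the change was 6.29 ± 0.63 in WT and 6.41 ± 0.65 in Het, and for *Bglap3* 3.40 ± 0.48 and 4.61 ± 0.52 (adjusted p at most 1.22e-05, edgeR). Thus 3 of 3 copies rose in either genotype, where 30.7% of all genes tested changed in WT and 35.4% in Het. The *Bglap3* values started from 1 to 10 counts per library at day 8, which limits their precision.

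Between days 14 and 21 no copy passed the edgeR or DESeq2 test in either genotype (at an unadjusted edgeR p under 0.05, *Bglap* in WT alone), where 8.45% of all genes changed in WT and 4.74% in Het. The summed RQ of the 3 copies was 0.807 ± 0.399 at day 14 and 1.59 ± 0.272 at day 21 in WT (SD, n = 4). These WT libraries did not overlap (exact permutation p = 0.0286, the smallest that 4 against 4 allow, adjusted p = 0.0508 over 32 such tests), but the log2 change of 0.98 ± 0.51 missed the threshold (adjusted p = 0.285, edgeR). In Het the sum was 0.398 ± 0.399 and 0.525 ± 0.149, and the days overlapped (log2 change 0.40 ± 0.50, adjusted p = 0.749, edgeR). Without Het day 14 replicate 2 the log2 change of the Het sum was 1.39 (adjusted p = 0.0706, edgeR), and that of *Bglap* was 1.66 (adjusted p = 0.0297). In WT at day 21 the 3 copies together held 0.0722% of all counts.

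**Figure D1:**
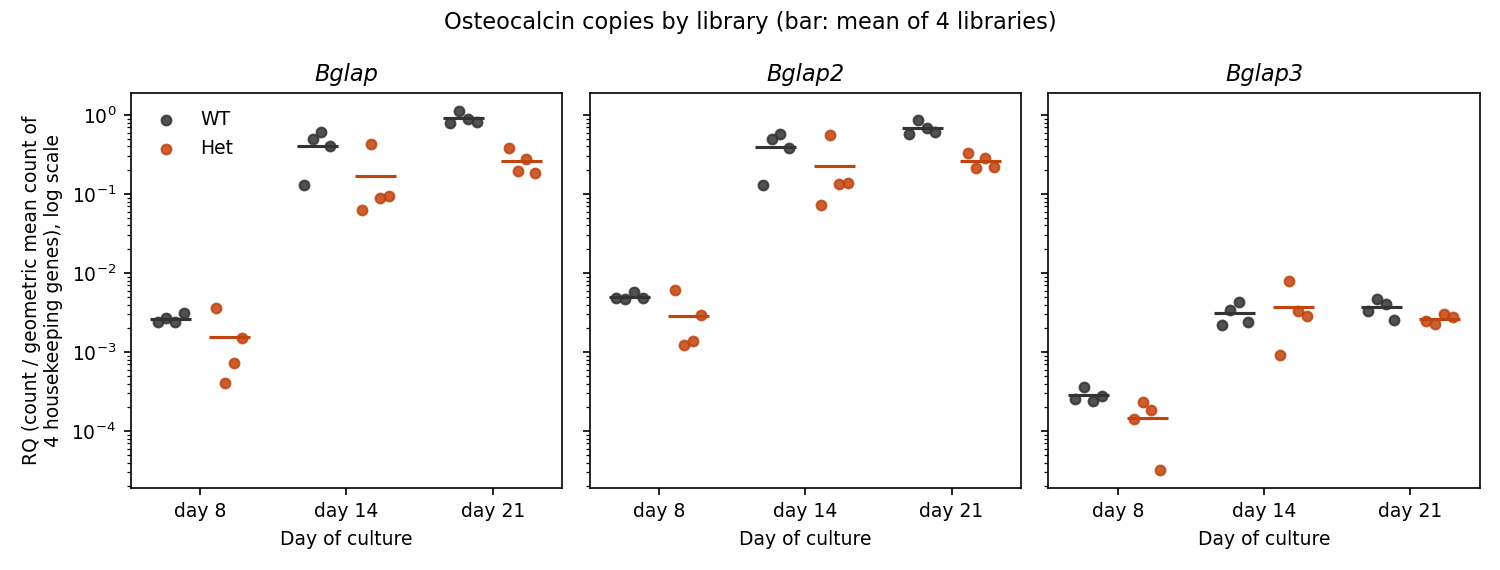
RQ (log scale) of each copy in every library by day of culture, with WT in black and Het in orange. Points are libraries, replicates 1 to 4 from left to right, and bars are means of 4 libraries. *Bglap* and *Bglap2* lie well above *Bglap3* from day 14, and at day 21 all Het points of *Bglap* (0.185 to 0.385) lie below all WT points (0.795 to 1.11).

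In Het cultures *Bglap* and *Bglap2* transcripts were lower than in WT over days 14 and 21, and *Bglap3* did not pass the test. Mean *Bglap* RQ over both days was 0.658 ± 0.311 in WT and 0.215 ± 0.137 in Het (SD, n = 8), a ratio of 0.326. The log2 fold change was -1.54 ± 0.36 (SE, adjusted p = 0.00799, edgeR), and 57 of 20434 genes had a lower value. *Bglap* was lower in Het in 8 of 8 pairs of one day and replicate number. The WT and Het ranges over both days overlapped, because WT day 14 replicate 1 (0.130) lay below 5 of the 8 Het values and Het day 14 replicate 2 (0.424) above 2 WT values.

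For *Bglap2*, mean RQ was 0.540 ± 0.217 in WT and 0.244 ± 0.153 in Het (SD, n = 8), a ratio of 0.452. In WT it had 57, 129, 141 and 141 counts at day 8, 1412, 12108, 14880 and 10811 at day 14, and 6167, 21210, 12959 and 15288 at day 21. In Het it had 85, 36, 38 and 91, then 648, 7528, 3662 and 3105, then 3341, 5510, 7154 and 5871. As for *Bglap*, replicate 1 was the lowest WT library at day 14, and the highest Het libraries were replicate 1 at day 8 and replicate 2 at day 14. The log2 fold change over days 14 and 21 was -1.10 ± 0.35 (SE, adjusted p = 0.0366, edgeR), and Het was higher in 1 of 8 pairs. This call was not stable: the adjusted p passed 0.05 when any of 11 of the 16 libraries was left out (highest 0.0808, without WT day 14 replicate 3).

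The sum of the 3 copies fell by 1.31 ± 0.36 on the log2 scale in Het over days 14 and 21 (adjusted p = 0.0185, edgeR), and it was lower in 8 of 8 pairs. Exact permutation tests of mean RQ gave p = 0.00295 for *Bglap*, 0.0087 for *Bglap2* and 0.00466 for the sum (two-sided, n = 8 per genotype), each at 0.0508 after adjustment over the 32 tests. Permuting only within a day gave p = 0.00122, 0.00898 and 0.00327 (exact). Thus 2 of 3 copies passed the edgeR test, where 15.2% of all genes did. Both sets of permutation tests, and the main edgeR fit, treat the libraries of a replicate number as independent. Exact swaps of whole replicate numbers, of which there are 4, can go no lower than 0.125. These RQ differences therefore cannot pass an exact test under the pairing. Fewer cells making osteocalcin and less transcript per cell cannot be told apart in these bulk samples.

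On single days neither edgeR with all 6 groups and the housekeeping scale nor DESeq2 called a copy. At an unadjusted edgeR p under 0.05 there were 0 copies at day 8, 1 at day 14 (*Bglap*) and 2 at day 21 (*Bglap* and *Bglap2*). At day 8 the sum had a log2 fold change of -0.89 ± 0.59 (adjusted p = 0.682), at day 14 of -1.02 ± 0.51 (0.247) and at day 21 of -1.60 ± 0.51 (0.134), in a fit that called 0.631%, 3.45% and 0.91% of all genes on these days. At day 21 RQ of the sum was 0.404 to 0.718 in Het and 1.38 to 1.98 in WT, without overlap (exact permutation p = 0.0286, and 0.125, the smallest possible, when genotypes were swapped only within a replicate number). Single-day calls depended on the setting. *Bglap* at day 21 passed the threshold with the replicate number as a block (log2 -1.73, adjusted p = 0.0492, edgeR) and with the total count as scale (-1.75, 0.047). With only the day 21 libraries in the fit, *Bglap* (adjusted p = 0.0112), *Bglap2* (0.0106) and the sum (0.0106) passed it. With replicates 2 to 4 alone, *Bglap* (0.00191), *Bglap2* (0.0069) and the sum (0.00353) passed it at day 21, and *Bglap* at day 14 (-1.32, 0.0249). The effect at days 14 and 21 did not differ detectably from that at day 8 (difference for the sum -0.43 ± 0.69, adjusted p = 1.0, edgeR), a contrast in which 0.171% of all genes were called.

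At day 14 the result turned on Het replicate 2. Its summed RQ was 0.993, against 0.137, 0.227 and 0.236 in the other Het libraries and 0.262, 0.995, 1.19 and 0.788 in WT. Without it the day 14 change was -2.01 ± 0.44 for the sum (adjusted p = 0.0313, edgeR), -2.31 for *Bglap* (0.0136) and -1.77 for *Bglap2* (0.0419), and over both days it was -1.81 for the sum (0.000999). Of 7 late OB genes compared by library, this library was the highest Het day 14 library in 5 (*Col1a1*, *Dmp1*, *Sost*, *Phex* and *Ifitm5*) and below replicate 1 in *Ibsp* (8.18 against 10.1) and *Mepe* (0.0249 against 0.188). Its *Dmp1* RQ was 0.145 against 0.0795 to 0.0827 in the others, and its *Col1a1* RQ 116 against 82.7 to 103. It held 28159342 counts, against 17140202, 56219341 and 42998287 in replicates 1, 3 and 4. Over all genes, its counts differed from replicates 3 and 4 by a chi-square per degree of freedom of 64.5 and 48.9. This measure, which also grows with depth, was 8.03 between replicates 3 and 4. Between replicate 1 and the others it was 82.8 to 105. At day 8 the Het libraries were split as well: summed RQ was 0.00982 in replicate 1 and 0.00186, 0.00232 and 0.00449 in replicates 2 to 4, against 0.00755 to 0.00831 in WT. Replicates 2 to 4 alone gave a day 8 change of -1.48 for the sum (adjusted p = 0.074, edgeR).

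**Figure D2:**
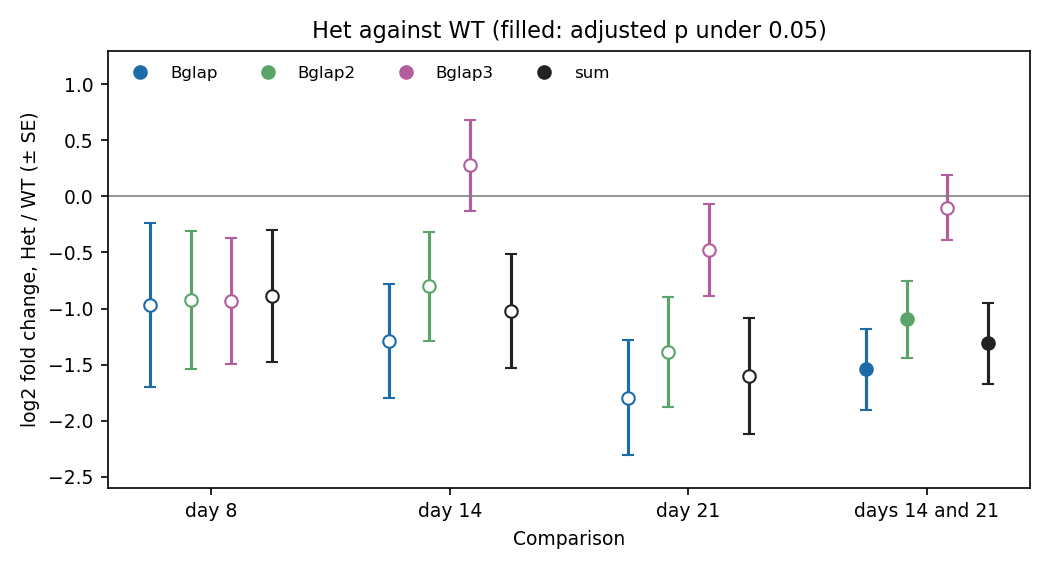
Log2 fold change of Het over WT for each copy and the sum, with standard errors, for single days and for days 14 and 21 together. Filled points have an adjusted p under 0.05 in edgeR: *Bglap* (-1.54), *Bglap2* (-1.10) and the sum (-1.31) over days 14 and 21.

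The split of the counted reads between the copies also shifted with day and genotype. How reads that fitted several copies were counted is not given, so a share describes counts and may differ from the share of transcripts. The part of read coverage along the transcripts in these shares was not tested. The share of the summed count held by *Bglap* was 31.8, 34.7, 28.6 and 37.7% in the WT libraries at day 8, 49.8, 50.1, 51.2 and 50.9% at day 14, and 57.6, 56.0, 56.5 and 57.7% at day 21. It varied little between WT wells at day 14 (SD 0.658 points) and day 21 (SD 0.809), although their summed RQ ranged from 0.262 to 1.19 at day 14, and more at day 8 (SD 3.87). In Het it was 37.0, 21.8, 31.7 and 33.8% at day 8, 45.8, 42.7, 39.6 and 39.6% at day 14, and 53.6, 47.7, 49.4 and 45.6% at day 21. At days 14 and 21 every Het library lay below every WT library of the same day.

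The mean share of *Bglap* in Het differed from that in WT by -8.56 percentage points at day 14 (42.0 ± 2.96 against 50.5 ± 0.658%, SD, n = 4) and by -7.84 points at day 21 (49.1 ± 3.37 against 56.9 ± 0.809%). Each gave an exact permutation p of 0.0286, the smallest possible (adjusted p = 0.0429 over 24 share tests). Since replicate numbers were taken to pair the genotypes, these tests were repeated with swaps only within a number. Each then gave 0.125 by the exact test, since 4 pairs can go no lower, so the single-day share differences do not pass under the pairing. Over both days the difference was -8.20 points (exact permutation p = 0.00233, adjusted p = 0.028, n = 8 per genotype). The share was lower in Het in 8 of 8 pairs of one day and replicate number. The difference stayed between -9.35 and -7.36 points with any library left out. Swapping each of the 8 pairs alone gave an exact permutation p of 0.00781, but this treats the 2 days of a number as independent. Swaps of whole numbers, of which there are 4, can go no lower than 0.125, so this difference cannot pass under the pairing either. At day 8 the means were 31.1 and 33.2% (exact permutation p = 0.6), where single libraries held 55 to 239 counts of the cluster and the 95% Wilson interval of Het replicate 2 ran from 12.9 to 34.4%. The share of *Bglap* rose from day 8 to day 14 and from day 14 to day 21 in WT, each without overlap (exact permutation p = 0.0286, adjusted p = 0.0429). In Het the first step was 10.9 points (the same p) and the second 7.14 points (exact permutation p = 0.0571).

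A pair of libraries with nearly equal summed RQ differed in the split of these counts, and it included the Het library that stood apart at day 14. The part of the level in the share difference was not tested. Het day 14 replicate 2 and WT day 14 replicate 2 had nearly the same summed RQ (0.993 and 0.995), but *Bglap* held 42.7% (95% Wilson interval 41.9 to 43.6) of the cluster in the first and 50.1% (49.5 to 50.7) in the second. WT day 14 replicate 1 had a summed RQ of only 0.262 and a *Bglap* share of 49.8% (48.0 to 51.7). These intervals cover counting error only, and not the assignment of reads to copies. Across all 24 libraries the share followed the log2 summed RQ (Pearson r = 0.912, Spearman rho = 0.927), and within the 8 WT and 8 Het libraries of days 14 and 21 r was 0.698 and 0.436, given as a description of libraries that share days and preparations.

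**Figure D3:**
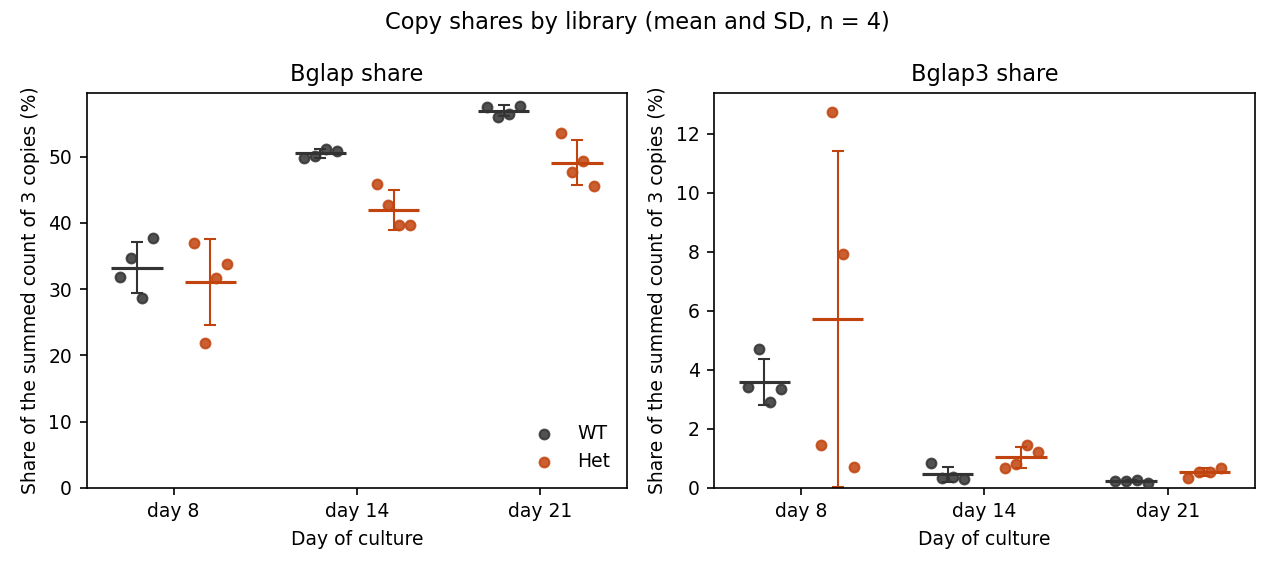
Share of the summed count of the 3 copies held by *Bglap* (left) and *Bglap3* (right) in every library by day, WT black and Het orange, with mean and SD of 4 libraries. *Bglap* rises with day in both genotypes and lies lower in all Het libraries at days 14 and 21, and *Bglap3* is highest at day 8, where counts are few.

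**Figure D4:**
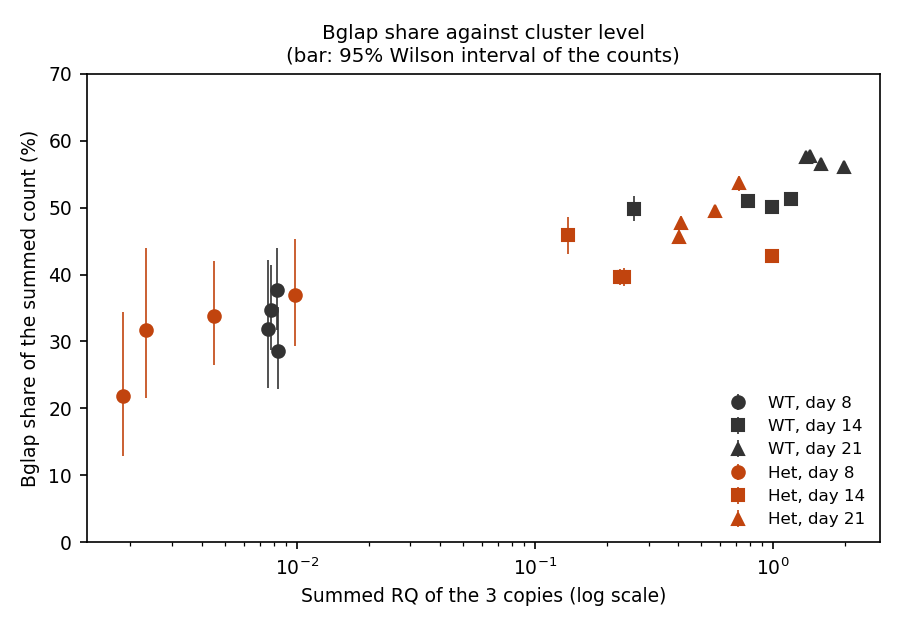
*Bglap* share of the summed count against summed RQ (log scale) in the 24 libraries, with 95% Wilson intervals of the counts. At a summed RQ near 1 the Het day 14 library lies at 42.7% and a WT day 14 library at 50.1%.

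Per kilobase of the deposited gene length (618 bases for *Bglap*, 471 for *Bglap2*), RQ of *Bglap2* was 0.0107 ± 0.000937 and that of *Bglap* 0.00428 ± 0.000547 in WT at day 8 (SD, n = 4). By day 21 these values were level in WT, at 1.45 ± 0.274 and 1.47 ± 0.230, whereas in Het *Bglap2* stood at 0.554 ± 0.121 and *Bglap* at 0.423 ± 0.150. The deposited length includes stretches that reads cannot tell apart. Unique windows numbered 99 in *Bglap* and 50 in *Bglap2* at 50 bases, and 149 and 160 at 100 bases. The level of *Bglap* against *Bglap2* within a group is therefore uncertain. *Bglap3* (2629 bases) stayed at or below 0.00142 RQ per kilobase in every group mean. The order of the summed level ran from Het day 8 over WT day 8, Het day 14, Het day 21 and WT day 14 to WT day 21. In this order only WT day 8 to Het day 14 and WT day 14 to WT day 21 had no overlap between neighbours.

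*Bglap3*, the copy known from other tissues, had few reads. It had 3 to 10 counts per WT library at day 8, 24 to 113 at day 14 and 35 to 116 at day 21, and 1 to 7, 8 to 106 and 25 to 77 in Het. At day 8 its RQ did not overlap between genotypes and was lower in Het (exact permutation p = 0.0286, adjusted p = 0.0508), at these few counts. With division by the total count or TMM scaling the genotypes overlapped (exact permutation p = 0.0857 each). Its RQ over days 14 and 21 was 0.00338 ± 0.000948 in WT and 0.00319 ± 0.00204 in Het (SD, n = 8). The log2 difference of -0.10 ± 0.29 did not pass the test (adjusted p = 0.876, edgeR), was above 0 when WT day 14 replicate 3 or Het day 14 replicate 1 was left out, and was -0.42 without Het day 14 replicate 2. Its share of the cluster was higher in Het, at 0.528 ± 0.140% against 0.229 ± 0.0341% at day 21 (exact permutation p = 0.0286, adjusted p = 0.0429, no overlap, and 0.125 within replicate numbers). At day 14 it was 1.03 ± 0.366 and 0.463 ± 0.251%, with overlap (exact permutation p = 0.0857).

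The machinery that modifies osteocalcin was measured alongside. Of 6 genes for the vitamin K cycle, carboxylation and processing, 2 fell in Het over days 14 and 21, where 15.2% of all genes were called (median log2 change -0.18, against -0.05 over all genes). These were *Vkorc1*, which recycles vitamin K (-0.29 ± 0.08, adjusted p = 0.0159, edgeR), and *Furin*, a proprotein convertase (-0.23 ± 0.05, 0.00553). *Ggcx*, the carboxylase, changed by -0.15 ± 0.05 without passing the test (adjusted p = 0.0601), and rose from day 8 to day 14 in WT (0.35 ± 0.07, adjusted p = 0.000944). Of the 14 other vitamin K dependent Gla proteins, 10 were tested and none was called over days 14 and 21 (edgeR, 2 at an unadjusted p under 0.05, median 0.04), *Mgp*, an inhibitor of mineralization, at -0.38 ± 0.31 among them. The proposed osteocalcin receptors *Gprc6a* and *Gpr158* had a mean of 0.333 counts per library each and were not tested.

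Of 16 transcriptional regulators linked to osteocalcin genes, 4 fell and 1 rose in Het over days 14 and 21, where 15.2% of all genes were called (median log2 change -0.20). *Runx2*, the master regulator of the OB lineage, fell (-0.39 ± 0.13, adjusted p = 0.041, edgeR), as did the vitamin D receptor gene *Vdr* (-0.76 ± 0.25, 0.0434), the Notch target *Hey1* (-0.58 ± 0.14, 0.00992) and the glucocorticoid receptor gene *Nr3c1* (-0.26 ± 0.08, 0.0288). *Cebpb* rose (0.66 ± 0.13, 0.00325). *Sp7* (osterix) stood at -0.34 ± 0.13 (0.076) and *Atf4* at 0.26 ± 0.12 (0.136). At day 8 *Dlx3*, a homeobox factor of the OB lineage, was lower in Het (-1.59 ± 0.32, adjusted p = 0.0272, edgeR), the regulator called on that day. From day 8 to day 14 in WT, where 30.7% of all genes changed, 10 of the 16 rose, *Dlx3* by 3.53 ± 0.30 and *Vdr* by 2.06 ± 0.37, and *Msx2* fell by 1.56.

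Other late OB genes gave a context for these values. Of 10 mature OB and osteocyte genes, none was called lower and 1 rose over days 14 and 21, where 15.2% of all genes were called. It was *Pdpn* (0.34 ± 0.11, adjusted p = 0.0475, edgeR), an early osteocyte gene. Of the 10, 6 had an unadjusted edgeR p under 0.05 in either direction. Apart from *Pdpn*, every gene of this list had a negative log2 change over days 14 and 21, without being called. At day 8, 2 of the 10 were called lower in Het, where 0.631% of all genes were called: *Ifitm5*, a membrane protein of mineralizing OBs (-1.99 ± 0.28, adjusted p = 0.00187, edgeR), and *Dmp1*, an osteocyte matrix protein (-2.42 ± 0.40, 0.00854), with a median of -1.54 over the list. Over days 14 and 21 the median log2 change was -0.48, with *Sost* (a Wnt inhibitor of osteocytes) at -0.85 ± 0.31 (0.0625), *Ibsp* (bone sialoprotein) at -0.55 ± 0.27 (0.174) and *Col1a1* at -0.39 ± 0.18 (0.159). The difference between these genes and *Bglap* was not itself tested. From day 8 to day 14 in WT, where 30.7% of all genes changed, 8 of the 10 rose, *Sost* by 8.40 ± 0.71 and *Ibsp* by 4.39 ± 0.44.

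Markers of other cells moved with genotype. Calls of markers are given over days 14 and 21, where 15.2% of all genes were called. Of 6 macrophage markers, 5 rose in Het, *Csf1r* by 1.05 ± 0.20 (adjusted p = 0.00276, edgeR) and *Lyz2* by 1.16 ± 0.27 (0.00728). The summed RQ of the 6 was 1.12 to 3.61 in WT and 2.44 to 5.98 in Het at day 14, and 4.80 to 5.69 in WT and 6.30 to 14.97 in Het at day 21, and none of the 6 was at 0 in a group. Of 4 OB markers *Runx2* fell, and their summed RQ was 98.9 to 179 in WT and 93.5 to 125 in Het at day 14, and 165 to 183 and 112 to 147 at day 21. Their part in the osteocalcin result was not tested. Of 4 osteoclast markers tested, *Atp6v0d2* rose and *Mmp9* fell, and *Calcr* had no counts in 3 of the 6 groups. Of 3 endothelial markers *Kdr* rose. None of 3 chondrocyte, 2 tested adipocyte, 1 tested muscle, 1 fibroblast and 1 smooth muscle marker was called (edgeR, 0 at an unadjusted p under 0.05). The chondrocyte sum was split by replicate. At day 21 it was 7.46 in WT and 7.45 in Het replicate 1, but 3.18 to 5.31 in WT and 1.08 to 1.26 in Het replicates 2 to 4. At day 14 it was 19.5 in WT and 21.0 in Het replicate 1, but 5.66 to 11.8 in WT and 1.29 to 2.31 in Het replicates 2 to 4. This split was not tested.

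The genes most like the cluster over all 24 libraries, by Pearson r with the log2 summed RQ among the 14888 genes that averaged 50 counts or more, were *Ano1* (0.993), *Msi1* (0.990), *Inpp4a* (0.987), *Enpp6* (0.987) and *Rhobtb1* (0.987). The step from day 8 dominated this measure, and 7.06% of the genes had r above 0.9. With each day's mean removed over the 16 libraries of days 14 and 21, they were *Rerg* (0.958), *Slc36a2* (0.957), *Mxd1* (0.955), *Col24a1* (0.954) and *Col13a1* (0.954), and 0.363% had r above 0.9. In the second measure *Bglap* and *Bglap2* had r of 0.996 and 0.995 with the sum that holds them, and *Bglap3* 0.699.

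Genes around the cluster were measured as its genomic context. Of 16 other genes that started within 100 kb of a member's start, 11 were tested. Of these, 1 fell in Het over days 14 and 21, where 15.2% of all genes were called. It was *Paqr6* (-0.46 ± 0.16, adjusted p = 0.0497, edgeR), which lies next to *Bglap3*. The median log2 change of the 11 was 0.00, against -0.05 over all genes. From day 8 to day 14 in WT 4 of the 11 rose and 2 fell, where 30.7% of all genes changed. Their largest rise was 0.97 ± 0.19 (*Gm38392*). *Pmf1*, the neighbour beyond *Bglap*, fell by 0.34 ± 0.10 on this step and stood at 0.16 ± 0.07 between genotypes (adjusted p = 0.15, edgeR). The pseudogenes *Gm21956* and *Gm6821* had means of 1.08 and 0.667 counts.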

How the data were processed

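Polyadenylated RNA of 24 OB cultures (WT and Het, days 8, 14 and 21, 4 libraries each) was sequenced. The authors deposited raw counts per gene for each library and a gene length. The submitters' processing notes name cutadapt 2.5, STAR 2.73a, Subread, featureCounts 1.6.4 and mm10. The strand rule, the treatment of multi-mapping reads and the annotation release are not given in the sources used here. The members, gene lists and tests were chosen with earlier results of these data known. Named genes were the members, the 4 housekeeping genes, *Col1a1*, *Col1a2*, list genes and the 5 most similar genes by each measure.

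Counts were tested with edgeR 4.0.16 in R 4.3.3 (quasi-likelihood test, filterByExpr, 6 groups in one model, Benjamini-Hochberg threshold of 0.05 over 20434 genes), with the geometric mean count of the 4 housekeeping genes as library scale. The sum was tested in place of the 3 rows. RQ and shares were compared by exact two-sided permutation tests that went through every regrouping (Python 3.11.15). Shares of single libraries have Wilson intervals (scipy 1.17.1). List genes with several entries were read from the entry with most counts. Of the 55335 identifiers, 54587 matched GENCODE vM21. Similarity used log2 of (count + 0.5) over the scale.

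Same-numbered WT and Het libraries of a day deviated together (r of 0.193 to 0.713 in 12 of 12 pairs over 14890 genes), so replicate numbers were taken to pair the genotypes. Same-numbered days of a genotype did so in 22 of 24 pairs (r above 0.1). Among replicates 2 to 4, differently numbered libraries did so too, in 16 of 18 genotype pairs (median r 0.243, against 0.439 with the same number). For days of a genotype it was 35 of 36 pairs (0.328 against 0.352). Whether single numbers pair within replicates 2 to 4 is therefore uncertain. Alternatives were other library scales (TMM, DESeq2 size factors, total count), the DESeq2 1.42.0 Wald test, no filter, fewer libraries, a replicate block and leaving out each library.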

Additional observations from a re-analysis of the deposited data

Results flagged for a closer look

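Among 42 groups of 4 values (RQ of each copy and the sum, and copy shares), 4 held a value far from the other 3. Chance flags about 1 in 20 groups, and values of one library are not independent. Het day 14 replicate 2 was the highest of its group in *Bglap* RQ (0.424, the next being 0.0937), *Bglap2* RQ (0.561, next 0.140) and summed RQ (0.993, next 0.236). WT day 14 replicate 1 had the highest *Bglap3* share (0.838%, next 0.368%), from 24 *Bglap3* counts.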

How the results depend on the processing

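Values here are log2 changes in edgeR unless named otherwise. Same-numbered WT and Het libraries were taken as paired. With the replicate block the sum over days 14 and 21 was -1.35 (adjusted p = 0.00991) and *Bglap2* -1.13 (0.0185). Beside *Bglap* at day 21, the block moved no edgeR call of a member. With only the groups compared in the fit, *Bglap2* over days 14 and 21 lost its call (-1.10, adjusted p = 0.057), and *Bglap* (-1.80), *Bglap2* (-1.39) and the sum (-1.60) at day 21 gained one. With the total count *Bglap* at day 21 was called (-1.75). With replicates 2 to 4 alone *Bglap* (-2.10), *Bglap2* (-1.59) and the sum (-1.85) at day 21 and *Bglap* at day 14 (-1.32) were called, and signs turned for the step from day 14 to 21 in Het (*Bglap2* -0.22, sum -0.0697) and for the effect at days 14 and 21 minus that at day 8 (*Bglap2* 0.24, sum 0.0343). The RQ difference of *Bglap3* over days 14 and 21 turned to 0.000100 with these replicates and to 0.00145 CPM with division by the total count.

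Leaving out 1 library at a time gave, for Het against WT over days 14 and 21, -1.58 to -0.95 for *Bglap2* and -0.42 to 0.0512 for *Bglap3*, and at day 14 -2.01 to -0.74 for the sum and -0.36 to 0.58 for *Bglap3*. The step from day 14 to 21 in Het ran from -0.0883 to 1.17 for *Bglap2* and -0.81 to 0.12 for *Bglap3*, and the effect at days 14 and 21 minus that at day 8 from -1.08 to 0.0319 for *Bglap*, -0.65 to 0.34 for *Bglap2* and -0.92 to 0.15 for the sum. RQ differences ran from -0.0169 to 0.146 for *Bglap2* and -0.00205 to 0.000279 for *Bglap3* (day 14 to 21, Het), and for *Bglap3* in Het against WT from -0.000730 to 0.00160 at day 14 and -0.000862 to 0.000136 over days 14 and 21. The *Bglap* share in Het against WT ran from -4.09 to 0.957 points at day 8, -9.86 to -7.79 at day 14 and -9.34 to -6.69 at day 21, and in Het it rose by 7.79 to 12.8 points to day 14 and 5.64 to 8.43 to day 21. At day 8 the share difference was -1.39 to 1.76 points for *Bglap2* and -0.223 to 3.78 for *Bglap3*. With 3 against 4 libraries many exact tests no longer passed, since fewer regroupings exist.

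Counts of all genes called moved by over 1.5 times in several settings. For Het against WT over days 14 and 21, 3098 became 5005 with the block and 8236 with replicates 2 to 4. At day 8, 129 became 458 with DESeq2, 315 with the block, 3405 with replicates 2 to 4 and 0 with only these groups in edgeR (1817 at an unadjusted p under 0.05). At day 14, 704 became 1712 with DESeq2, 1360 with its size factors, 1281 with TMM, 1740 with the total count, 263 without filter, 34, 1983 and 5727 (groups compared, block, replicates 2 to 4). At day 21, 186 became, in the same order, 797, 511, 419, 857, 92, 368, 955 and 4770. From day 14 to 21, 968 in Het became 1678 with DESeq2, 598 without filter, 69, 1701 and 3696, and 1726 in WT became 2749, 2686 and 3530 (groups compared, block, replicates 2 to 4). From day 8 to 14 in Het, 7228 became 4596 with the groups compared. For the effect at days 14 and 21 minus that at day 8, 35 became 92 with DESeq2, 67 with the block and 928 with replicates 2 to 4. The causes were not tested. *Bglap3* at day 8 had no value with only the groups compared, since its counts were under the filter.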
